A study of Mus musculus with 9 samples.

Results

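Muscle of mice that lack MCUb was compared with control muscle, using the 3 arrays titled as MCUb knockout and the 3 titled as control among the 9 arrays of the series. Every probe set that was not a control feature was used. The control mice were MCU+/+/MCUb+/+ and the knockout mice MCU+/+/MCUb-/-, both of strain C57/BL6 and 2 months old. The tissue was whole tibialis anterior, the fast muscle at the front of the shin, flash-frozen after harvest. The other 3 arrays, from MCU-/-/MCUb+/+ mice of the same strain and age, entered the fit and were used to see where the MCUb knockout differed from loss of the pore subunit. How the genes were deleted, in which cells, and the sex, litter and hour of harvest of the mice are not given in the sources used here. The labels do not state that the 3 arrays of a group came from 3 animals. P-values therefore measure the spread between these samples, part of which may be technical.

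The mitochondrial calcium uniporter is a channel of the inner mitochondrial membrane that lets calcium into the matrix, where calcium stimulates dehydrogenases that feed the respiratory chain. MCU forms its pore, EMRE and the MICU proteins hold and gate it, and MCUb, a relative of MCU, can take a place in the pore and has been described as lowering its conductance. Skeletal muscle has large uniporter currents, and its calcium rises with each contraction. The title of the series asks about MCUb as an inducible activator of oxidative phosphorylation, and MCUb knockout against control is the comparison of transcripts in muscle with and without it.

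Levels are deposited signals read as log2, since the log base is not given in the sources used here. On that reading a difference of 1 is a doubling, and a signal over the 95th percentile of an array's background probe sets was taken as above background there. Between 45.3% and 45.9% of the 22206 probe sets tested were above background on an array. The arrays carried muscle: all 10 fibre markers measured were above background on all 6 arrays, and the lowest of them, the calcium release channel gene Ryr1, had a mean level of 14.19. Control replicate 3 stood apart, at -70.8 on the first principal component against -20.3 to 21.9 for the other 8 arrays. Uty and Kdm5d, both Y-linked, averaged 7.80 on MCUb knockout replicate 1 and between 3.01 and 3.89 on the other 5 arrays of the comparison, so replicate 1 differed in this respect from its group and from the controls. On MCU knockout replicates 1, 2 and 3 these genes averaged 3.58, 7.56 and 7.24. Mcub was not analysed here, so the deletion itself was not checked on these arrays.

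Few transcripts differed between MCUb knockout and control. Adh1 and Cep85l rose, Tnfrsf12a and Nr1d1 fell, and a probe set without a gene name fell. These 5 of 22206 probe sets, or 0.0225%, had a limma adjusted p under 0.05, with 2 higher (0.00901%) and 3 lower (0.0135%), and none of the 5 changed by less than 1.67 (log2). An unadjusted p under 0.05 was reached by 1802 probe sets, or 8.11% of those tested, 867 higher (3.9%) and 935 lower (4.21%). Among probe sets above background on all 3 arrays of either group that share was 11.3%. The groups did not overlap in 12.8% of all probe sets, 5.73% with the knockout higher and 7.02% with it lower. The median difference over all probe sets was -0.03. The number past the threshold rested on single arrays: it was 0 without MCUb knockout replicate 1, without MCUb knockout replicate 3 or without control replicate 1, where limma gave 1395, 1436 and 1649 probe sets at an unadjusted p under 0.05. It was 2 without MCUb knockout replicate 2 and 3 without MCU knockout replicate 2. Removal of control replicate 2 raised it to 20.

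Adh1, on chromosome 3, encodes the class I alcohol dehydrogenase, an enzyme that oxidises ethanol and retinol. Its level was 11.01, 10.95 and 11.44 on the control arrays and 12.92, 13.10 and 13.16 on the MCUb knockout arrays. The groups lay far apart, with a gap of 1.48 between the highest control and the lowest knockout array, while the arrays within each group were close together. The mean rose from 11.13 ± 0.27 to 13.06 ± 0.13 (SD, n = 3 in each group), a log2 difference of 1.93 (SE 0.21) or 3.80-fold, with a limma adjusted p of 0.0152. In whole muscle a change of this kind can come from more cells of a type or from more RNA per cell, and the arrays cannot tell these apart. The difference stayed between 1.84 and 2.08 when single arrays were left out. Adh1 was no longer past the threshold without MCUb knockout replicate 1 (adjusted p = 0.0597), replicate 2 (0.091) or replicate 3 (0.114), or without control replicate 1 (0.106).

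Cep85l, on chromosome 10, encodes a protein of the centrosome. The control arrays read 8.89, 9.04 and 8.79 and the MCUb knockout arrays 10.47, 10.78 and 10.48. All 3 knockout arrays were above all 3 controls by at least 1.43. The mean rose from 8.91 ± 0.13 to 10.57 ± 0.17, by 1.67 (SE 0.19) or 3.17-fold, with a limma adjusted p of 0.0173. With single arrays left out the difference was between 1.57 and 1.73. The call was lost without any 1 of the MCUb knockout arrays (adjusted p = 0.0735, 0.14 and 0.114 for replicates 1, 2 and 3), without control replicate 1 (0.116), without control replicate 3 (0.0582) and without MCU knockout replicate 2 (0.054).

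Tnfrsf12a, on chromosome 17, encodes Fn14, the receptor of the cytokine TWEAK, which in muscle is known to rise with denervation and injury. Its control levels were 14.62, 14.25 and 13.36, and its MCUb knockout levels 10.81, 11.63 and 10.75. The lowest control was the array that stood apart, and it still lay 1.73 above the highest knockout array. The mean fell from 14.08 ± 0.65 to 11.07 ± 0.49, a difference of -3.01 (SE 0.34), which leaves 12.4% of the control signal, with a limma adjusted p of 0.0152. Without control replicate 3 the difference was -3.37. The call was lost without MCUb knockout replicate 1 (adjusted p = 0.0735), MCUb knockout replicate 3 (0.114) or control replicate 1 (0.106).

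Nr1d1, on chromosome 11, encodes REV-ERB alpha, a haem-binding nuclear receptor that represses transcription within the circadian clock and in muscle is known for effects on mitochondrial content. It read 13.75, 13.33 and 14.13 on the control arrays and 12.17, 11.43 and 11.53 on the MCUb knockout arrays. No knockout array reached a control array, and the gap was 1.16. Its mean fell from 13.73 ± 0.40 to 11.71 ± 0.40, a difference of -2.02 (SE 0.27) that left 24.6% of the control signal, with a limma adjusted p of 0.0462. Of the 4 genes its adjusted p was the closest to the threshold. Leaving out control replicate 2 kept it (adjusted p = 0.034), and leaving out any other array ended it: 0.0597, 0.298 and 0.349 without MCUb knockout replicates 1, 2 and 3, 0.201 and 0.115 without control replicates 1 and 3, and 0.0887, 0.0726 and 0.104 without MCU knockout replicates 1, 2 and 3. The difference itself stayed between -2.25 and -1.83.

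For each of these 4 genes, 3 arrays against 3 gave p = 0.1 in a two-sided exact permutation test, the smallest p that this design allows.

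**Figure D1:**
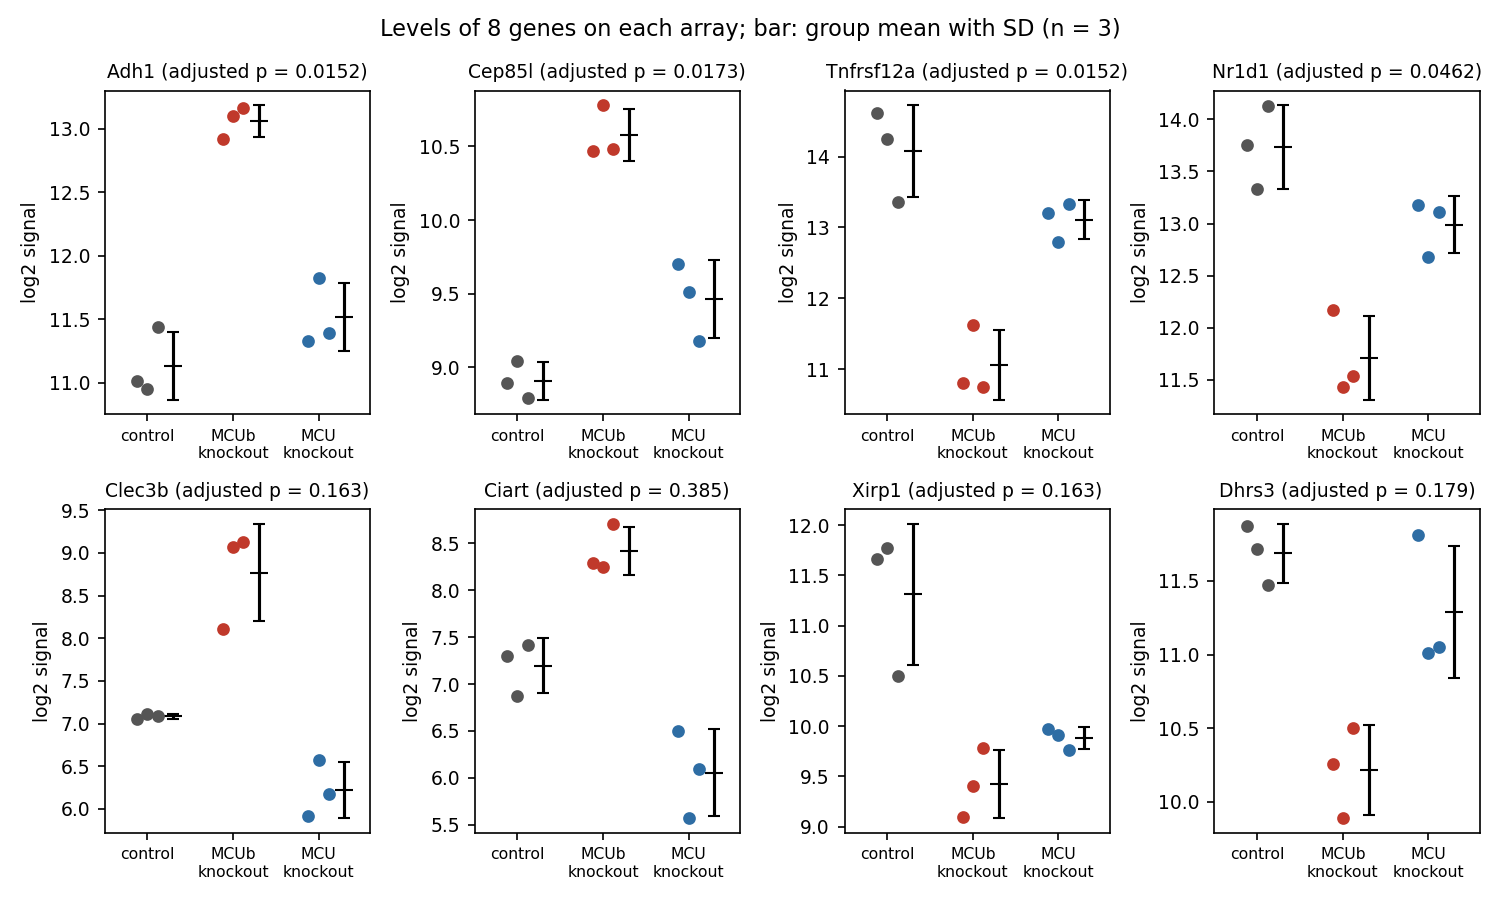
Log2 signal of 8 genes on each array of the control, MCUb knockout and MCU knockout groups, with the mean and SD of the 3 arrays beside them and the limma adjusted p of MCUb knockout against control above each panel. The 4 genes of the upper row passed the threshold. Those of the lower row did not pass and were named among genes whose groups do not overlap. The separation in their panels follows from that choice.

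The probe set without a name, TC0Y00000223.mm.2, was the probe set with the most negative difference. Its levels were 13.86, 13.59 and 12.87 on the control arrays and 9.82, 10.26 and 9.39 on the MCUb knockout arrays. It fell by 3.62 on the log2 scale (SE 0.38, limma adjusted p = 0.0152). It did not follow Uty and Kdm5d, since all 3 MCUb knockout arrays were low although replicate 1 alone of them had a high level of those genes. Its MCU knockout levels were 15.19, 13.68 and 14.52, on arrays where Uty and Kdm5d averaged 3.58, 7.56 and 7.24. Its call was lost without MCUb knockout replicate 1 (adjusted p = 0.0607), MCUb knockout replicate 3 (0.114) or control replicate 1 (0.106). The gene behind this probe set is not named in the sources used here.

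The neighbours of these genes on the chromosome were read next. The 10 measured genes on either side of each were taken in RefSeq gene order, 20 per gene, and 0 of these neighbours passed the threshold in limma. Above background on at least 3 of the 6 arrays were 9 around Adh1, 9 around Tnfrsf12a, 7 around Cep85l and 8 around Nr1d1. The remaining neighbours had little signal in which a difference could show. Around Adh1 0 of 20 had an unadjusted p under 0.05, and their differences ran from -0.66 to 0.81. Around Tnfrsf12a there were 0 higher and 1 lower at that level, around Cep85l 1 and 1, and around Nr1d1 2 and 1, against 8.11% of all probe sets. Thra, the thyroid hormone receptor gene whose transcription unit runs opposite to Nr1d1 and overlaps it, had a difference of 0.46.

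**Figure D2:**
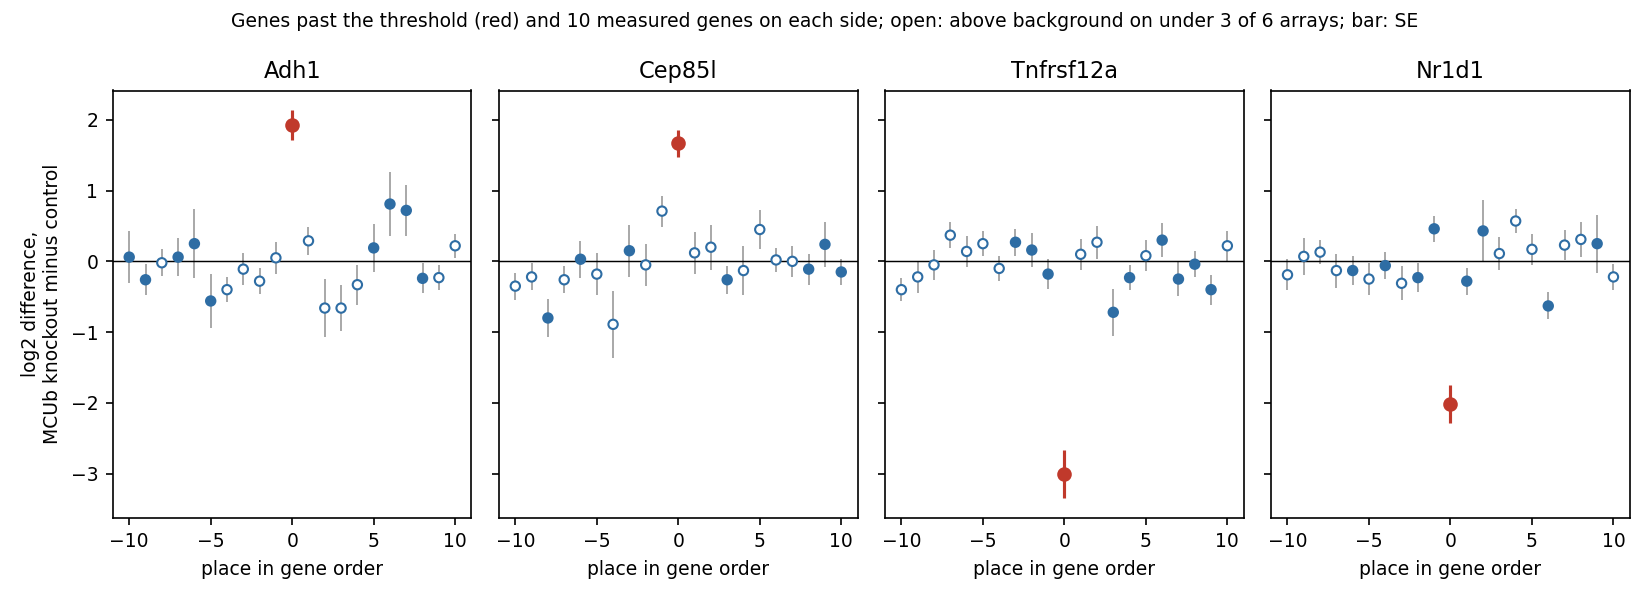
Log2 difference, MCUb knockout minus control, of the 4 named genes past the threshold (red) and of the 10 measured genes on each side in chromosome order (blue; open where under 3 of the 6 arrays were above background; bars are the SE of the limma fit). The neighbours lie between -0.89 and 0.81. The 4 genes were chosen for passing the threshold and the neighbours by position alone, so the distance between them follows from the choice.

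Below the threshold, 20 further genes were named by smallest p among those whose groups did not overlap and whose signal was above background, 10 higher and 10 lower in the knockout. The choice fixes their direction, so it is no evidence of one. Clec3b, which encodes the plasminogen-binding protein tetranectin, read 7.05, 7.11 and 7.09 in control and 8.11, 9.07 and 9.13 in MCUb knockout muscle. Its difference was 1.69 (SE 0.28, limma adjusted p = 0.163), and MCUb knockout replicate 1 was the lowest of its group. Clec3b is also a marker of matrix-producing fibroblasts and is itself among the 16 fibroblast and matrix markers measured. Their mean level ran from 8.59 to 9.21 on the control arrays and from 8.50 to 9.46 on the knockout arrays. The ranges overlap, and their part in the difference of Clec3b was not tested.

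Other genes on the higher side had smaller differences. Clcn3, an endosomal chloride-proton exchanger, was at 1.30 (SE 0.22), with control levels of 9.25, 8.77 and 8.50 and knockout levels of 10.03, 10.26 and 10.12. Rps6ka5, the kinase MSK1, which phosphorylates CREB and histone H3, was at 1.14 (SE 0.23), and Tsc22d3, the glucocorticoid-induced leucine zipper, at 0.94 (SE 0.20). The remaining higher genes were Pus10, a pseudouridine synthase (1.13), Cyth1, an exchange factor for ARF GTPases (0.98), Bcl2l1, the anti-apoptotic BCL-XL (0.98), Ciart, described with the clock genes, and 2 genes not above background on any control array. Of those, Ska2, a spindle and kinetochore protein, was at least 1.25-fold higher, with 6.22 ± 0.04 against 5.14 ± 0.11, and Taf6l, a subunit of a histone acetyltransferase complex, was at least 1.25-fold higher, with 6.22 ± 0.17 against 5.43 ± 0.10. The limma adjusted p of these genes was between 0.127 and 0.443.

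On the lower side the largest difference was that of Xirp1, an actin-binding repeat protein of the intercalated disc and of remodelling muscle. Its control levels were 11.66, 11.77 and 10.50 and its MCUb knockout levels 9.10, 9.40 and 9.78. Again control replicate 3 was the lowest control. The difference was -1.88 (SE 0.31, limma adjusted p = 0.163), and without control replicate 3 it was -2.29 and past the threshold (adjusted p = 0.00936). Pdlim1, a Z-disc adaptor for alpha-actinin, was at -1.30 (SE 0.25), with 12.77, 12.55 and 12.78 in control and 11.06, 11.90 and 11.24 in the knockout.

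Maob, the outer-membrane monoamine oxidase of mitochondria, was at -1.60 (SE 0.27), from 8.34, 8.04 and 8.76 to 6.50, 6.55 and 7.29. Entpd1, the ectonucleotidase CD39, was at -1.29, Pias4, a SUMO ligase, at -1.39, and Slc26a10, of an anion exchanger family, at -1.44. Tm4sf1, a membrane protein abundant in endothelium, was at -1.29 (SE 0.25), Gimap8, a GTPase of lymphocytes and endothelium, at -1.10 (SE 0.22), and Tmem140 at -1.39. Gimap8 was above background on 1 of the 3 knockout arrays. The limma adjusted p of the 10 lower genes was between 0.163 and 0.268, and the last of them, Dhrs3, is described with retinoid metabolism.

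**Figure D3:**
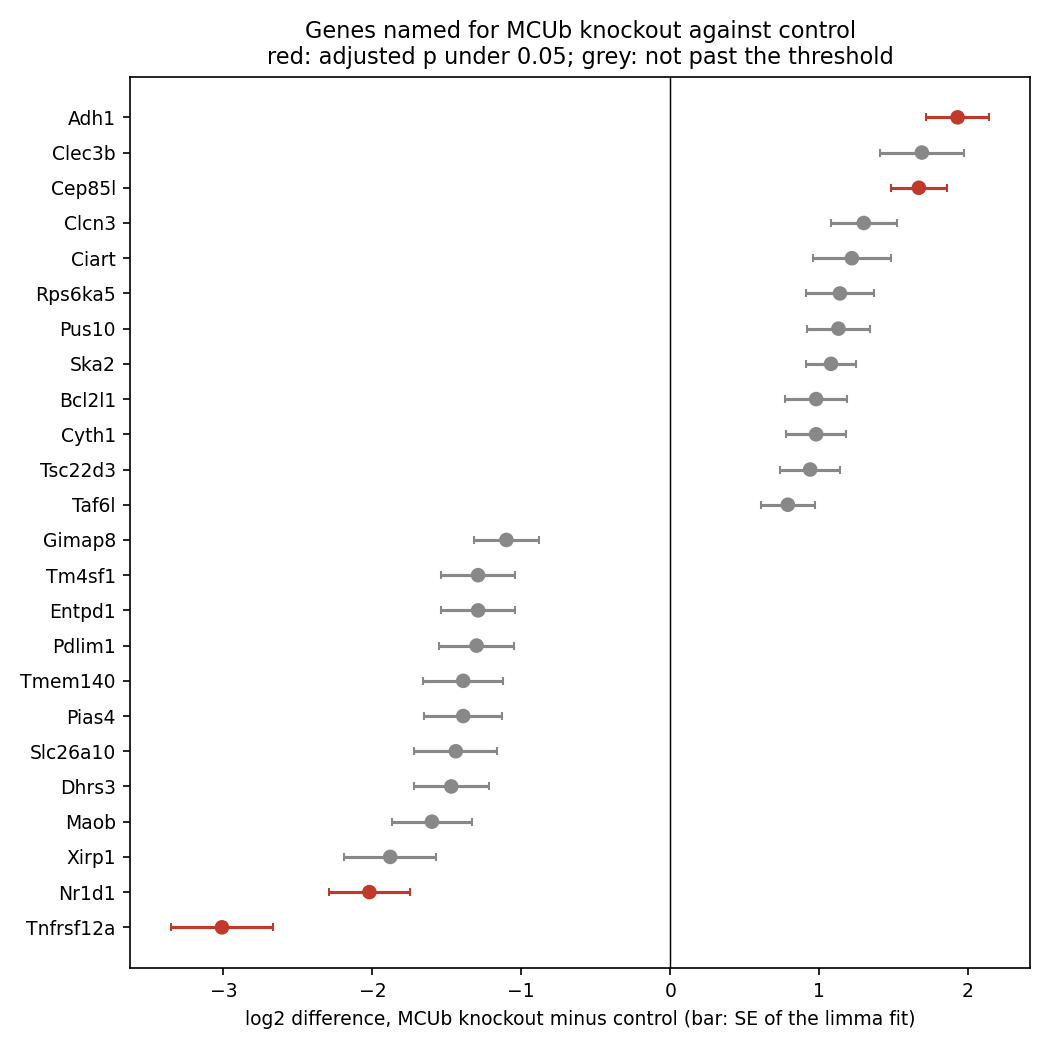
Log2 difference, MCUb knockout minus control, with the SE of the limma fit, of the 24 genes named by rule. The 4 in red had an adjusted p under 0.05, and the 20 in grey were chosen for small p and groups that do not overlap and did not pass.

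Genes of alcohol and retinoid metabolism were read as a list because they share the pathway of Adh1. Retinol is oxidised to retinal by alcohol and retinol dehydrogenases, retinal is oxidised to retinoic acid by aldehyde dehydrogenases, and retinoic acid acts through RAR and RXR receptors. Of 27 measured members 14 were above background on all 3 arrays of either group. Past the threshold 1 rose (Adh1) and 0 fell, and the median difference was -0.09 against -0.03 over all probe sets. At an unadjusted p under 0.05 there were 3 higher and 2 lower, where 3.9% and 4.21% of all probe sets were. Dhrs3, which reduces retinal back to retinol and is induced by retinoic acid, read 11.87, 11.72 and 11.47 in control and 10.26, 9.89 and 10.50 in MCUb knockout muscle. Its groups were apart by 0.96, and the difference of -1.47 (SE 0.25, limma adjusted p = 0.179) did not pass. The receptor genes were spread: Rara was at -0.63 (SE 0.19), Rarb at 0.63 (SE 0.26), Rarg at 1.21 (SE 0.47), Rxra at 0.43 and Rxrg at -0.27, with adjusted p from 0.53 to 0.843. The control levels of Rarg were 7.26, 8.74 and 6.22, so control replicate 2 lay within the knockout range of 8.40 to 8.78. Aldh2, the mitochondrial aldehyde dehydrogenase, was at -0.19 and Rdh14, a retinol dehydrogenase, at -0.59.

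Genes of TWEAK and NF-kB signalling surround Tnfrsf12a. TWEAK bound to Fn14 recruits TRAF adaptors and frees NF-kB dimers from their inhibitors. Of 19 measured members 11 were above background on all 3 arrays of either group. Past the threshold 1 fell (Tnfrsf12a) and 0 rose, and the median difference was -0.11. A further 2 were lower at an unadjusted p under 0.05, against 4.21% of all probe sets. Rel, the subunit c-Rel, read 8.36, 7.97 and 8.27 in control and 7.08, 7.44 and 8.04 in the knockout, where replicate 3 lay within the control range, and its difference was -0.68 (SE 0.28, limma adjusted p = 0.577). Nfkbiz, a nuclear regulator of the IkB family, was above background on 1 control array and on 0 knockout arrays, with 5.84 ± 0.12 and 4.66 ± 0.19, so no fold is given. Birc3, a ubiquitin ligase and NF-kB target, was at -0.72, Nfkb2 at -0.59 and Nfkbib, an inhibitor, at -0.24, none past the threshold.

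The circadian clock is a loop in which CLOCK and BMAL1, the product of Arntl, activate the Per, Cry, Nr1d1 and Ciart genes through E-boxes. The PER and CRY proteins, with CIART, repress that activation, and REV-ERB alpha represses Arntl through RORE sites on which the ROR receptors activate. Muscle has its own clock, and transcripts of its arms peak at different hours, so the hour of harvest, which is not given, sets their levels. Promoters are shown for 3 members that stand for the arms of the loop: Ciart of the repressor arm, Arntl of the activator arm, and Nr1d1, the clock gene that fell. Each is the RefSeq window from 250 bases before to 50 bases after a transcript start, on build GRCm38.p6, 5′ to 3′ on the gene's strand. Capitals mark E-boxes (CACGTG) in Ciart (chr3:95882179-95882478, minus strand) and the core of a RORE site (AGGTCA) in Arntl (chr7:113207261-113207560, plus strand). The window of Nr1d1 (chr11:98775328-98775627, minus strand) holds neither in these letters on either strand.
Ciart: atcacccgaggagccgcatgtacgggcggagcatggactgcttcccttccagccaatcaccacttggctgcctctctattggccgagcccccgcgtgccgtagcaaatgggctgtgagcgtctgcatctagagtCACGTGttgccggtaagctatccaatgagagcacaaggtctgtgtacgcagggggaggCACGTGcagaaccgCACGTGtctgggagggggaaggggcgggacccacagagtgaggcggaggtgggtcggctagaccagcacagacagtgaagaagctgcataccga
Arntl: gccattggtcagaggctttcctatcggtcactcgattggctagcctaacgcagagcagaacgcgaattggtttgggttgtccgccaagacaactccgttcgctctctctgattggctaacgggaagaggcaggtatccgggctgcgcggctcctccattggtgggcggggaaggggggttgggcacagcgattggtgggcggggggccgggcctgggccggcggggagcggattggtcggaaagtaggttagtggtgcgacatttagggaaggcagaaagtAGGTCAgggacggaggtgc
Nr1d1: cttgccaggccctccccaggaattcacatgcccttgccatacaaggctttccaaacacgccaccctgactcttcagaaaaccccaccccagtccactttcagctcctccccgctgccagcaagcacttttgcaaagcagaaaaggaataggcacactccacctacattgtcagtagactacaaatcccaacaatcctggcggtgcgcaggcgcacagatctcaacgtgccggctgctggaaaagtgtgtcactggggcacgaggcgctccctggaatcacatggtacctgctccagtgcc

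Of 23 measured clock genes 20 had a window. The E-box letters were found for 6 of them (Per1, Cry1, Ciart, Bhlhe41, Tef and Tspan4) and in 7.15% of all 32851 windows. The RORE core was found for 5 (Per1, Nr1d2, Clock, Arntl and Nfil3) and in 16.3% of all windows. Both strands were read, no window shown holds both motifs, and a gene could have several windows. A match is a description of the letters and not of binding.

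In the repressor arm, 7 of 10 measured members had a mean above control, and the median difference was 0.54 against -0.03 over all probe sets. Nr1d1 fell, 0 rose, and 4 were higher at an unadjusted p under 0.05, against 3.9% of all probe sets. Ciart read 7.30, 6.87 and 7.42 in control and 8.29, 8.25 and 8.71 in MCUb knockout muscle. All 3 knockout arrays were above the controls, by at least 0.83, and the difference was 1.22 (SE 0.26, limma adjusted p = 0.385). Per2, a core period gene, read 6.61, 7.04 and 6.58 against 7.80, 7.63 and 7.37, also without overlap, with a difference of 0.85 (SE 0.26, adjusted p = 0.534).

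The cryptochrome genes were higher by less. Cry1 was at 0.69 (SE 0.28), with knockout levels of 9.03, 8.30 and 8.41, and its highest control at 8.29 was within 0.01 of the lowest. Cry2 was at 0.48 (SE 0.20) with groups that overlap. Per1 was at 0.61 with groups that overlap, and at 0.30 without control replicate 2. Per3 was at 0.44 and Bhlhe41, a repressor that competes for E-boxes, at 0.79 (SE 0.36), where knockout replicate 1 at 8.97 carried most of the difference over 7.89 and 7.35. Bhlhe40 was at -0.24. Nr1d2, which encodes REV-ERB beta, read 12.81, 12.79 and 13.16 in control and 13.00, 12.77 and 12.67 in the knockout, a difference of -0.11 (SE 0.20) with overlapping groups.

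In the activator arm 4 of 7 members were above background. Arntl read 9.09, 9.36 and 8.53 in control and 7.49, 7.57 and 8.09 in the knockout, with no overlap, and a difference of -1.28 (SE 0.40, limma adjusted p = 0.534) that did not pass. Clock was at -0.33 (SE 0.17), from 13.40, 13.31 and 13.15 to 12.81, 13.09 and 12.97. Npas2, a paralogue of Clock, was not above background on any of the 6 arrays. Rora, a receptor that activates through RORE sites, was at 0.03 and Nfil3, a repressor of D-box genes, at 0.19.

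Among output genes, 5 of 6 means were above control, the median difference was 0.38, and 3 members were higher at an unadjusted p under 0.05, a level that 3.9% of all probe sets reached. Hlf, a PAR bZIP factor, read 6.18, 6.63 and 6.64 in control and 8.07, 7.01 and 7.52 in the knockout, a difference of 1.05 (SE 0.28, limma adjusted p = 0.477). Usp2, a ubiquitin protease under clock control, read 15.56, 15.32 and 15.31 against 15.85, 15.87 and 15.91, with the knockout arrays close together and a difference of 0.48 (SE 0.18, adjusted p = 0.565). Wee1, a cell cycle kinase under clock control, was at 0.73 (SE 0.29) with overlapping groups. The PAR bZIP genes Tef and Dbp were at 0.27 and 0.13, and Tspan4 at -0.16.

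Over the 3 clock lists together, 7 of 23 members were higher and 3 lower at an unadjusted p under 0.05, where 3.9% and 4.21% of all probe sets were. The groups did not overlap in 5 with the knockout higher and 5 with it lower, against 5.73% and 7.02% of all probe sets. Of the 5 lower members Npas2 and Rorb were above background on 0 of the 6 arrays. Without control replicate 3 the numbers at that p were 5 and 2, and without MCUb knockout replicate 1 they were 5 and 3. The lists were chosen with earlier results of these data known, clock genes move together with the hour of harvest, and the genotypes and any difference in hour cannot be told apart here.

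**Figure D4:**
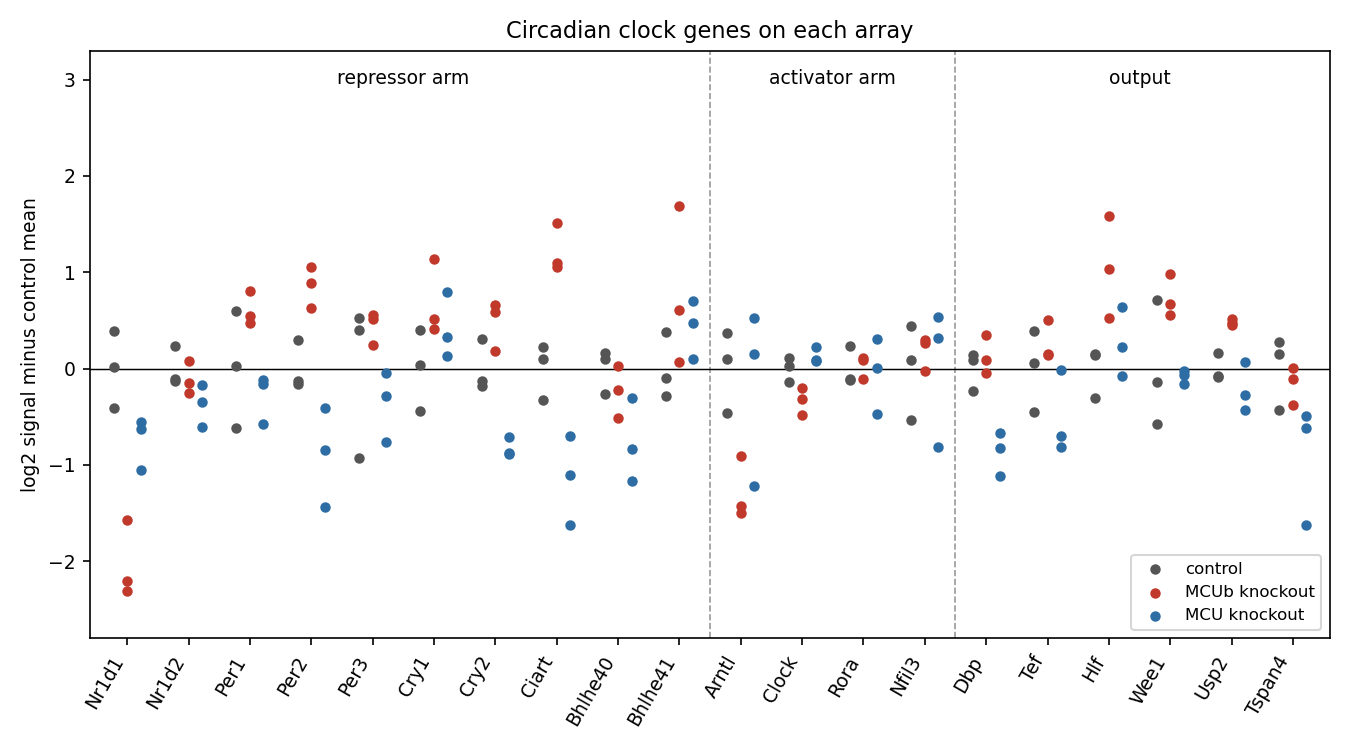
Log2 signal of 20 clock genes on each of the 9 arrays, as the difference from the control mean of that gene. Among MCUb knockout arrays (red) Nr1d1, Arntl and Clock lie below all controls, and Ciart, Per2, Cry1, Hlf and Usp2 above all controls, Cry1 by 0.01.

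The comparison with the MCU knockout shows which of these changes the arrays could tell from loss of the pore. The direct test between the knockouts had 35 probe sets past the threshold (0.158% of those tested), 21 higher (0.0946%) and 14 lower (0.063%) in the MCUb knockout. Of the 24 genes named by rule 4 were among them: Adh1, Tnfrsf12a, Clec3b and Ciart. The 24 were chosen on the same MCUb knockout arrays that enter this test. Their share is therefore no separate evidence and cannot be set against that of all probe sets. Adh1 read 11.33, 11.82 and 11.39 on the MCU knockout arrays, all below the MCUb knockout, and differed by 1.55 (SE 0.21, limma adjusted p = 0.0119). That call was lost without MCUb knockout replicate 2 or 3 or MCU knockout replicate 1 or 3, with adjusted p up to 0.0866 and a difference of at least 1.46.

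Tnfrsf12a stood at 13.20, 12.80 and 13.33 in the MCU knockout, between the other groups, and differed by -2.05 (SE 0.34, adjusted p = 0.0489). It kept this call in 8 of 17 other settings and lost it without MCUb knockout replicate 1 or 3, any MCU knockout array or control replicate 2, with a difference between -2.33 and -1.89, and in 3 settings that kept all arrays. Clec3b read 5.92, 6.57 and 6.17 in the MCU knockout, below every control and above background on 2 of 3 arrays, whereas the MCUb knockout lay above every control. The difference between the knockouts was 2.55 (SE 0.28, adjusted p = 0.00339). Ciart had the same arrangement, with 6.50, 5.57 and 6.09 in the MCU knockout, also above background on 2 of 3 arrays, and a difference of 2.37 (SE 0.26, adjusted p = 0.0037). Clec3b and Ciart each passed in 16 of 17 other settings.

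Cep85l and Nr1d1 did not pass between the knockouts. Cep85l read 9.70, 9.51 and 9.18 in the MCU knockout (difference 1.11, SE 0.19, adjusted p = 0.0639) and Nr1d1 13.18, 12.68 and 13.11 (difference -1.28, SE 0.27, adjusted p = 0.166). Both therefore lay between control and MCUb knockout. For Ska2, Bcl2l1, Maob, Pdlim1, Entpd1 and Slc26a10 the MCU knockout means were 6.53, 7.63, 6.91, 10.93, 7.58 and 6.82, beside MCUb knockout means of 6.22, 7.39, 6.78, 11.40, 7.83 and 6.69. Of these, Ska2, Pdlim1 and Entpd1 passed against control in the MCU knockout (limma adjusted p = 0.005, 0.0205 and 0.0458). Xirp1 read 9.97, 9.91 and 9.76 in the MCU knockout, also below every control. Other named genes differed from this: Dhrs3 had a mean of 11.29 in the MCU knockout, 11.69 in control and 10.22 in the MCUb knockout. Both knockouts were compared with the same 3 controls, so a shared difference from control is not 2 separate observations.

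Genes of mitochondrial function were read by role, since the study's question concerns oxidative phosphorylation. Across all 38 gene lists 547 distinct genes were measured, 3 passed the threshold (Adh1, Tnfrsf12a and Nr1d1), and 54 (9.87%) had an unadjusted p under 0.05, 26 higher and 28 lower. That share is close to the 8.11% of all probe sets and to the 11.3% of those above background. List medians lay above 0 for 11 lists and below 0 for 27.

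No measured gene of the uniporter passed. Of 11 genes of the complex and of calcium exchange 0 passed, 0 had an unadjusted p under 0.05, and the median difference was 0.07. Mcu, the pore subunit that stays in these mice, read 10.38, 10.96 and 10.46 in control and 10.71, 11.06 and 10.81 in MCUb knockout muscle, with overlapping groups and a difference of 0.26 (SE 0.20, limma adjusted p = 0.746). Micu2, a calcium-sensing gatekeeper, was at 0.90 (SE 0.44), with a wide control spread from 7.04 to 8.71. Mcur1, an assembly factor, was at 0.27, and Vdac2, an outer membrane channel, at 0.39 (SE 0.21).

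No respiratory chain transcript passed the threshold. Of 35 complex I genes, 15 means were above control and 20 below, and the median was -0.08. In limma 0 passed, and 2 were higher at an unadjusted p under 0.05, against 3.9% of all probe sets. Those were Ndufs5 at 0.60 (SE 0.26) and Ndufab1, the mitochondrial acyl carrier protein, at 0.67 (SE 0.29). In both genes control replicate 3 was the lowest array, at 16.05 and 13.99, and without it the differences were 0.27 and 0.32. Of 27 genes of complexes II to IV and cytochrome c the median was -0.09, with Cox7a2 at 0.69 and Cox6a1 at -0.51. Without control replicate 3 Cox7a2 was at 0.35. Of 16 ATP synthase genes 8 means were above and 8 below control; their median was -0.01, Atp5k at -0.51 and Atp5h at 0.38. Per array the complex I genes averaged 16.04, 16.05 and 16.08 in control. In the knockout replicate 2 averaged 16.09, above every control, and the other 2 arrays 16.03 or less, below every control.

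No fuel gene passed the threshold. Pyruvate dehydrogenase is switched off by PDK kinases and on by PDP phosphatases, the latter stimulated by calcium. Pdp1, the calcium-sensitive phosphatase, read 12.95, 12.32 and 13.15 in control and 13.93, 13.73 and 13.62 in the knockout, without overlap (0.95, SE 0.28, limma adjusted p = 0.527). Pdk4, the kinase induced by fasting, was at -0.87 (SE 0.36, adjusted p = 0.578), and its arrays of 10.33, 9.40 and 8.91 reached into the control range of 10.01 to 10.85. Without MCUb knockout replicate 3 Pdk4 was at -0.55. Among these genes the list of 13 had a median of 0.02. Among 18 citrate cycle genes the median was -0.07, with Idh2, the mitochondrial NADP-dependent isocitrate dehydrogenase, at -0.52.

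Of 19 genes of fatty acid oxidation 5 had a mean above control and 14 a mean below, and the median was -0.25. Of all 22206 probe sets 10212 had a mean above control and 11994 a mean below. In limma 0 of the 19 passed and 2 were lower at an unadjusted p under 0.05, against 4.21% of all probe sets. Etfdh, which passes electrons from fatty acid oxidation to ubiquinone, was at -0.81 (SE 0.29), and at -0.48 without control replicate 1. Echs1, enoyl-CoA hydratase, was at -0.57 (SE 0.24), while Hadh, the next enzyme of the spiral, was at 0.33 (SE 0.17). Of 15 uptake and storage genes 4 were lower and 0 higher at that p, against 4.21% and 3.9% of all probe sets. They were Ucp3, the uncoupling protein of muscle induced by fatty acids, at -1.07 (SE 0.39), Plin5, a lipid droplet protein, at -0.72 (SE 0.24), Fabp4 at -0.45 (SE 0.17), and the fatty acid translocase gene Cd36, chosen after its value was seen, at -0.57 (SE 0.24). The groups did not overlap in these 4, as with the knockout lower in 7.02% of all probe sets. The 4 were picked by their p, so the separation is no further evidence. Their limma adjusted p was between 0.534 and 0.591. Fabp4 and Cd36 are also expressed by endothelium and fat cells.

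Ucp3 and Pdk4 lay on opposite sides of control in the knockouts: Ucp3 was at 12.13 ± 0.70 in the MCU knockout, 11.27 ± 0.49 in control and 10.20 ± 0.57 in the MCUb knockout, and Pdk4 at 11.42 ± 0.41, 10.41 ± 0.42 and 9.55 ± 0.72. The differences between the knockouts, -1.92 and -1.87, did not pass (limma adjusted p = 0.135 and 0.112).

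In glycolysis and glycogen metabolism the median of 20 genes was 0.08, with Ldha at 0.72 (SE 0.31) and Gpd1 at 0.44 (SE 0.20), while Pfkfb3, which makes the activator of phosphofructokinase, was at -1.13 (SE 0.62) with a knockout spread from 9.35 to 11.19. Without control replicate 3 Ldha was at 0.33. Fatty acid and sterol synthesis had a median of -0.22 over 15 genes, with Acly at 0.48, Thrsp at 0.65 and Srebf2 at -0.86. Srebf2 was at -0.40 without control replicate 3, its highest array at 9.64. In branched-chain amino acid and ketone breakdown the median of 19 was -0.01. Its gene of smallest p was Ppm1k, the phosphatase that switches on branched-chain keto acid dehydrogenase, with 8.90, 9.02 and 8.52 in control and 9.77, 9.59 and 9.66 in the knockout (0.86, SE 0.21, limma adjusted p = 0.469). Bdh1 was at -0.61 and Gpt2 at -0.58.

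Mitochondrial biogenesis and dynamics had a median of -0.00 over 17 genes, with 8 means above control and 9 below. The genes named are those of smallest p, so they do not describe the list. Opa1, a fusion gene of the inner membrane, read 10.03, 10.44 and 9.58 in control and 10.77, 10.87 and 10.65 in the knockout (0.75, SE 0.22, limma adjusted p = 0.53). Mfn1, a fusion gene of the outer membrane, was at 0.50 (SE 0.20). In 3 of the 17 the groups did not overlap with the knockout higher, against 5.73% of all probe sets. Ppargc1b, a coactivator of mitochondrial genes, was at -0.58 (SE 0.19), with knockout arrays within 8.72 to 8.80. The integrated stress response had a median of -0.18 over 14 genes, of which 7 were not above background on any of the 6 arrays. Ddit3 was at -0.41 and Chac1 at -0.76. Redox and glutathione genes had a median of -0.06 over 20, with Gstm1 at -0.45. None of these passed.

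Contractile genes did not pass either. The 15 fast glycolytic fibre genes had a median of 0.11 and ran from -0.10 to 0.34, with the fast myosin gene Myh1 at 0.24 and Mylpf at 0.34. The 16 slow and IIa fibre genes had a median of -0.18. Csrp3, a Z-disc LIM protein, had the widest spread, with 14.98, 13.86 and 13.52 in control and 9.47, 14.07 and 12.36 in the knockout (-2.15, SE 1.01). Its low array was replicate 1, the MCUb knockout array with high Uty and Kdm5d, and with that level as a covariate the difference of Csrp3 was -1.20. Sln, the sarcoplasmic calcium pump inhibitor sarcolipin, was at -0.55 and Tnnt1 at 0.48.

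In excitation-contraction coupling the median of 18 genes was 0.03, and 1 was higher at an unadjusted p under 0.05, against 3.9% of all probe sets. That gene was Srl, the sarcoplasmic reticulum protein sarcalumenin, with 13.90, 13.97 and 13.80 in control and 14.48, 14.29 and 14.40 in the knockout (0.50, SE 0.16, limma adjusted p = 0.534). Jph2, which ties the sarcoplasmic reticulum to the surface membrane, was at -0.34.

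Stretch and cytoskeleton genes had 3 of 16 lower and 0 higher at an unadjusted p under 0.05, where 4.21% and 3.9% of all probe sets were, and a median of -0.11. Beside Xirp1 these were Ankrd1, a titin-binding stretch sensor (-1.05, SE 0.34, from 10.17, 9.13 and 9.22 to 7.83, 8.93 and 8.61), and Flnc, the muscle filamin and Xirp1 partner (-0.60, SE 0.22, from 10.57, 10.40 and 10.16 to 9.70, 10.03 and 9.60). In all 3 the groups were apart, as with the knockout lower in 7.02% of all probe sets. The 3 were picked by their p, so the separation is no further evidence. Among 19 atrophy and FoxO genes the median was -0.13. Cdkn1a, the cell cycle inhibitor p21, read 11.65, 10.94 and 11.94 in control and 8.30, 9.94 and 10.75 in the knockout (-1.85, SE 0.64, limma adjusted p = 0.535), with replicate 1 again the lowest, and Klf15 was at -0.81 and Fbxo31 at 0.44. Denervation and regeneration genes had a median of -0.03 over 16, with Myog, the activator of denervation genes, at -0.26 (SE 0.19). Immediate early genes had one of -0.05 over 24, of which 10 were not above background on any of the 6 arrays. Nr4a1 was at 0.68, Dusp1 at 0.44 and Nr4a3 at -1.81 (SE 1.15).

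Among plasminogen activation genes other than Clec3b, Plau was at 0.51 and Anxa2 at -0.30, neither past the threshold. The list of 10 had a median of -0.05, and 5 of its genes were not above background on any of the 6 arrays.

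Markers of other cell types were read beside these genes. Of 11 endothelial markers 10 were above background and 9 means were below control, as were 11994 of all 22206 probe sets. Of the 11 markers 2 were lower at an unadjusted p under 0.05, against 4.21% of all probe sets. They were Cldn5, a tight junction protein, with 7.26, 7.90 and 7.33 against 6.39, 6.68 and 5.81 (-1.21, SE 0.33, limma adjusted p = 0.477), and Kdr, the VEGF receptor, at -1.09 (SE 0.39) with groups that overlap. Without MCUb knockout replicate 3 Kdr was at -0.66. Flt1 was at -0.45. The mean level of the list ran from 8.89 to 9.57 on control arrays and from 8.62 to 9.15 on knockout arrays, and its part in the differences of Tm4sf1, Gimap8, Fabp4 and Cd36 was not tested. Of 10 pericyte and smooth muscle markers 9 means were below control, with a median of -0.25, Rgs5 at -0.32 and Kcnj8 at -0.51. Of the 10, 0 had an unadjusted p under 0.05. Their mean level ran from 9.21 to 9.82 on control arrays and from 9.29 to 9.62 on knockout arrays, with control replicate 3 the lowest array. Fibroblast and matrix markers had a median of 0.03 over 16, with Lum at 0.76 and Mfap5 at -0.63.

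Macrophage and neutrophil markers had 4 of 11 above background and a median of 0.08, with Mrc1 at -0.80, lowest on knockout replicate 1 at 9.21. Lymphocyte markers had 2 of 10 above background, adipocyte markers 2 of 8, satellite cell markers 2 of 8, tendon markers 3 of 9 (Thbs4 at 0.32) and Schwann cell markers 1 of 6 (Pmp22 at -0.31). Both erythroid genes measured were above background, with Alas2 of haem synthesis at -0.59. In these 7 lists 0 genes passed in limma and 3 were lower at an unadjusted p under 0.05, a level that 4.21% of all probe sets reached.

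**Figure D5:**
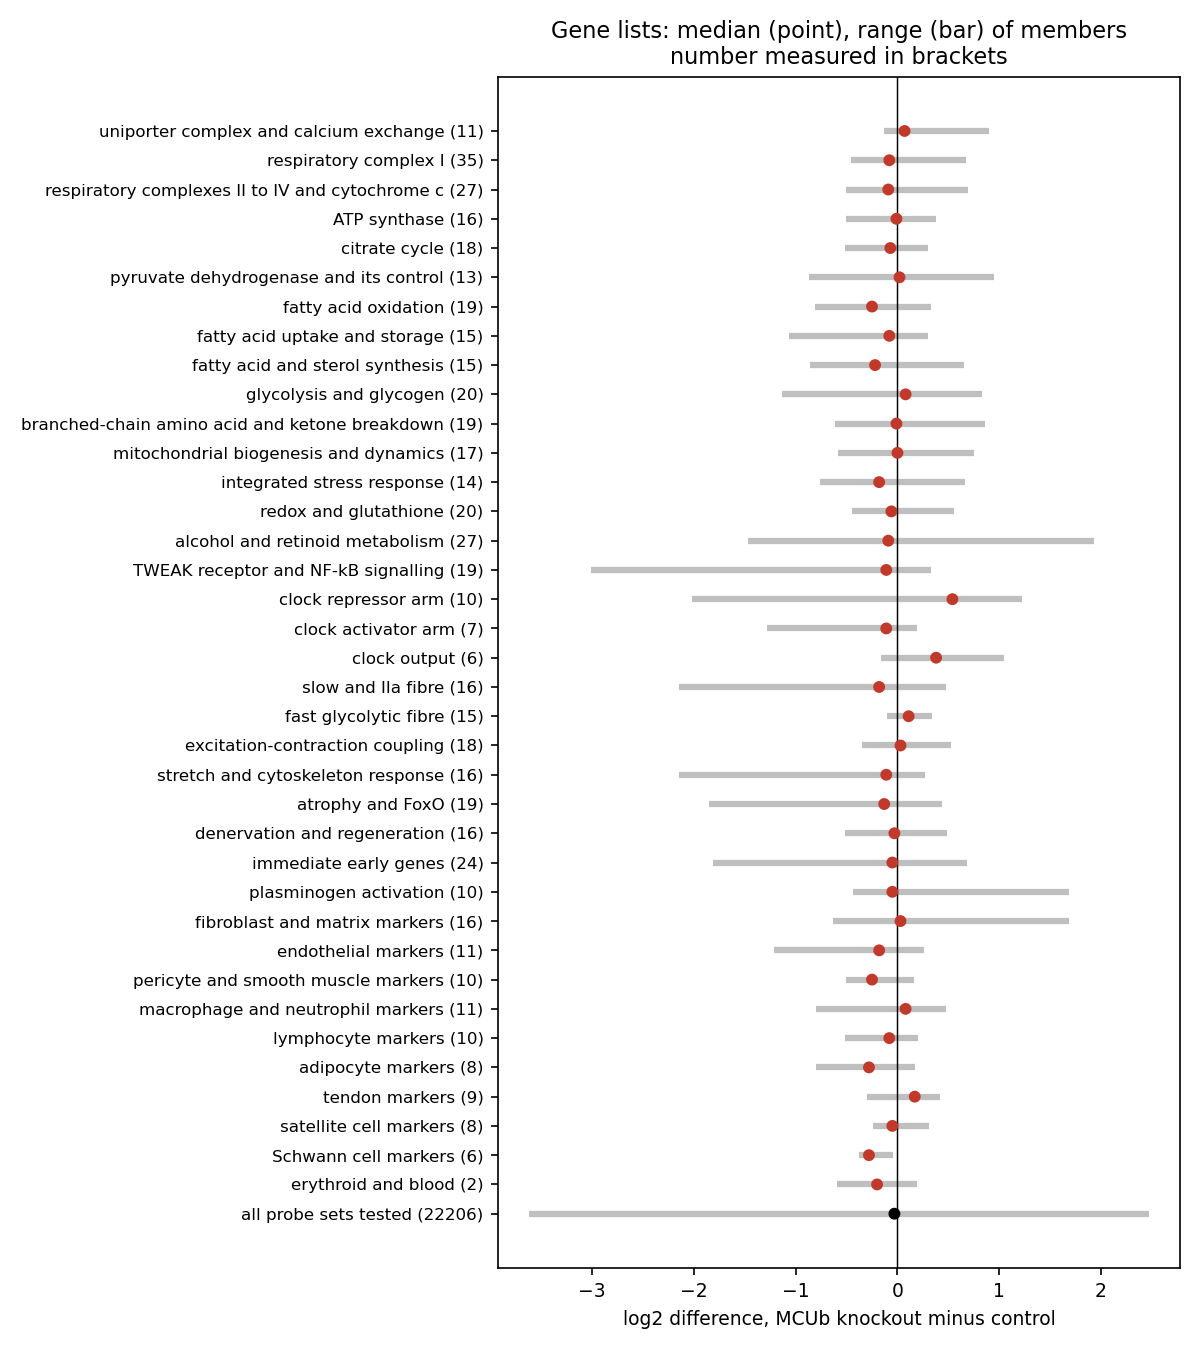
Median (point) and range (bar) of the log2 difference, MCUb knockout minus control, over the measured members of 37 gene lists, with the number measured in brackets and all probe sets tested in the bottom row. Medians of the lists shown lie between -0.28 and 0.54, and the clock repressor arm has the highest of these. The list of 3 Y-linked genes has a median of 0.95 and is not drawn. Of these genes 0 were above background on all 3 arrays of either group.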

How the data were processed

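Clariom S mouse arrays were hybridised with targets made from whole-muscle RNA with the GeneChip 3' IVT Pico kit, per the labels' protocols. The authors deposited values, read here as log2, 1 for each probe set on each array. The submitters' processing notes name Affymetrix Expression Console. The program's version, summarisation, normalization and log base are not given in the sources used here. The values were read as log2, and every fold rests on that reading.

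Each array held 28846 values, and its 6640 control features were not tested. Of the 22206 probe sets tested, 19572 had 1 gene symbol, 0 several and 2634 none in the platform annotation, and all 19572 were matched to RefSeq symbols of GRCm38.p6. The background limit of an array was the 95th percentile of 23 background sets (5.87 to 5.92). Where all arrays of a group lie below it, only a bound exists: the fold is the brighter group's mean against the dimmer group's limit. Unused columns of per-sample values numbered 0.

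The test was limma's (version 3.58.1, R 4.3.3; lmFit, eBayes, two-sided) over all 9 arrays as 3 group means. Residual degrees of freedom were 6 and the prior added 5.06. Benjamini-Hochberg adjustment covered all 22206 probe sets, the threshold was 0.05, and the script was tested on simulated data. With 3 arrays a group the precision is limited, and the median SE was 0.23. Named are genes past the threshold, then genes of smallest p with groups that do not overlap up to 12 each way. Also named are up to 3 members of smallest p per list, and clock, retinoid and NF-kB genes. The members and lists were chosen with earlier results of these data known. Lists are described by counts and medians and were not tested. Alternatives were a fit of the 6 arrays alone, quantile normalization, centring, the removal of dim probe sets, a trend and robust prior, array weights, the replicate number as a block, the Y-linked level as a covariate, no variance moderation, and leaving out each array. Promoter sequences are RefSeq's (GRCm38.p6).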

Additional observations from a re-analysis of the deposited data

Results flagged for a closer look

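The direct limma test between the knockouts separated 8 named genes, with MCUb knockout minus MCU knockout given throughout on the log2 scale. Mcu, the gene deleted in the other knockout, differed by 3.91 and passed in 17 of 17 other settings. Clec3b differed by 2.55 and Ciart by 2.37, each in 16 of 17. Adh1 differed by 1.55, in 12 of 17, and Tnfrsf12a by -2.05, in 8 of 17.

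The clock repressor Per2 read 6.33, 5.31 and 5.90 in the MCU knockout, near the background limits of 5.87 to 5.92 and above them on 2 of 3 arrays, and differed by 1.75 (SE 0.26, limma adjusted p = 0.0265). It passed in 8 of 17 other settings and was lost without MCU knockout replicate 2 or 3, any MCUb knockout array or control replicate 1 (difference between 1.48 and 1.99), and in 3 settings that kept all arrays. Cry2 read 8.39, 8.40 and 8.56 in the MCU knockout and differed by 1.30 (SE 0.20, adjusted p = 0.0336). Ppm1k read 8.53, 8.07 and 8.62 there and differed by 1.26 (SE 0.21, adjusted p = 0.0489). Cry2 and Ppm1k each passed in 3 of 17 other settings, and among settings without 1 array only without control replicate 3, where their differences ran from 1.21 to 1.45 and from 1.09 to 1.37. None of these 3 genes passed against control.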

How the results depend on the processing

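The main number of probe sets past the threshold, 5 against control, was 1 in a fit of the 6 arrays alone (1571 at an unadjusted p under 0.05 in limma) and 0 without variance moderation (1584). It was 0 to 20 when single arrays were left out. In the remaining settings it was 5 or 6. Against the MCU knockout the main number, 35, was 61 with array weights and 4 without variance moderation, and 13 to 43 when single arrays were left out.

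No paired reading was used, because the labels give only a number: same-numbered control and MCUb knockout arrays deviated together with correlations of -0.03, 0.09 and 0.06. With the replicate number as a block 5 probe sets passed against control and 28 against the MCU knockout. Between the knockouts the block ended the calls of Tnfrsf12a (adjusted p = 0.103), Per2 (0.0779), Cry2 (0.0692) and Ppm1k (0.145), as did the Y-linked covariate (0.0664, 0.0863, 0.0544 and 0.145) and the fit without variance moderation.

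Adh1 passed against control in 12 of 18 other settings, Tnfrsf12a in 13, Cep85l in 10 and Nr1d1 in 7. Their differences ran from 1.84 to 2.08, -3.37 to -2.74, 1.57 to 1.75 and -2.25 to -1.83. Given the Y-linked covariate, Adh1 was at 1.91 (adjusted p = 0.0329), Tnfrsf12a at -2.89 (0.0329), Cep85l at 1.75 (0.0329) and Nr1d1 at -2.11 (0.0587). Xirp1 passed with array weights (-2.06, adjusted p = 0.0334).

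The sign turned for Rora with the Y-linked covariate (-0.09), and when single arrays were left out for Rora (-0.03 to 0.14), Nfil3 (-0.08 to 0.41), Per3 (-0.02 to 0.70) and Nr1d2 (-0.20 to 0.01). Removal of control replicate 3 turned Per3 and Nr1d2, that of control replicate 2 turned Nfil3, and that of MCUb knockout replicate 1 or 3 or control replicate 1 or 2 turned Rora. Of 120 genes read singly and not past the threshold, 59 moved by over 1.5 times against control when 1 array was left out. None of these passed in any setting, and the cause was not tested. Of the list medians 660 values moved by less than the spread between arrays and 23 by more. Signal limits the rest: genes near background have no order.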

Other observations

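A further 3 probe sets without a gene name had groups that did not overlap and did not pass in the main setting. TC0800003213.mm.2 read 6.60, 6.63 and 6.12 in control and 8.62, 7.92 and 8.44 in the MCUb knockout (1.88, SE 0.26, limma adjusted p = 0.0561), and passed among probe sets above background only (0.0368). TC0700000473.mm.2 was at 2.08 (adjusted p = 0.236), or 2.54 and past the threshold without control replicate 2 (0.034), and TC0X00001715.mm.2 at -2.09 (adjusted p = 0.19). Like the unnamed probe set past the threshold, TC0X00001715.mm.2 was high in the MCU knockout, with 11.17, 9.61 and 10.42, against 10.11, 9.71 and 9.23 in control and 7.68, 7.88 and 7.21 in the MCUb knockout.

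Probe sets at an unadjusted p under 0.05 were spread over the chromosomes of the probe set names, from 6.67% on chromosome 1 to 10.4% on chromosome 16, with 1.37% on Y, where few probe sets had signal.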
